A study of Mus musculus with 8 samples.

Results

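The tRNAs for leucine, serine and selenocysteine are the class II tRNAs of the mouse nuclear genome, which carry a long variable arm between the anticodon stem and the T stem. Rows of the deposited table were taken where the name was tRNA with a number, a hyphen, Leu, Ser or SeC and an anticodon, with no filter on level. This gave 46 of the 964 rows and of the 328 tRNA rows: 24 Leu copies, 21 Ser copies and 1 SeC copy, in 10 isoacceptors (tRNAs that share an amino acid and an anticodon). The small RNA libraries came from 4 iMLL-ENL and 4 WT samples of GMLPs, granulocyte-monocyte-lymphoid progenitors sorted from mouse bone marrow. MLL-ENL is a leukaemia fusion protein of a histone methyltransferase and a partner from the elongation machinery, and iMLL-ENL mice carry it in inducible form. Cells of both groups were kept in culture for 3 days with doxycycline, the drug used to switch on such transgenes, so the WT cells had the drug as well. The promoter of the transgene, the age of the mice and whether each library came from its own mouse are not stated in the labels, and p-values then measure only the spread between these libraries, which may be technical. Markers of GMLPs and of other blood cells (miRNAs of the myeloid, erythroid and lymphoid lineages, Cd34, Kit, Flt3 and Fcgr3) had no row by name. The cell type label could therefore not be checked with them.

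A tRNA gene is transcribed by RNA polymerase III, mostly from control boxes inside the gene, and the transcript is trimmed, modified and charged with its amino acid. The enzyme that charges serine tRNAs recognises the long variable arm and not the anticodon. It also charges tRNA-SeC, whose serine is then converted to selenocysteine, and tRNA-SeC reads a UGA codon that would otherwise end translation. Leucine and serine each have several anticodons, so the isoacceptors of each amino acid read different codons.

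RefSeq annotation of GRCm38 was compared with the rows by amino acid and anticodon, since the row names give no chromosome. It held 46 Leu and Ser tRNA genes for the 45 Leu and Ser rows, with equal numbers for every isoacceptor except tRNA-Leu-TAA (3 genes, 2 rows). The genes lay on 11 chromosomes, 19 of them on chromosome 13. Of the 46 genes, all were 80 bases or longer, against 18 of 355 genes of the other isoacceptors of the table, and those 18 belonged to tRNA-Tyr-GTA, tRNA-Ile-TAT, tRNA-Ile-AAT and tRNA-Arg-TCT. The Leu-CAA genes, which carry an intron, were the longest at 105 to 107 bases, and the remaining Leu and Ser genes had 82 or 83. No SeC gene was matched in that annotation.

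**Figure D1:**
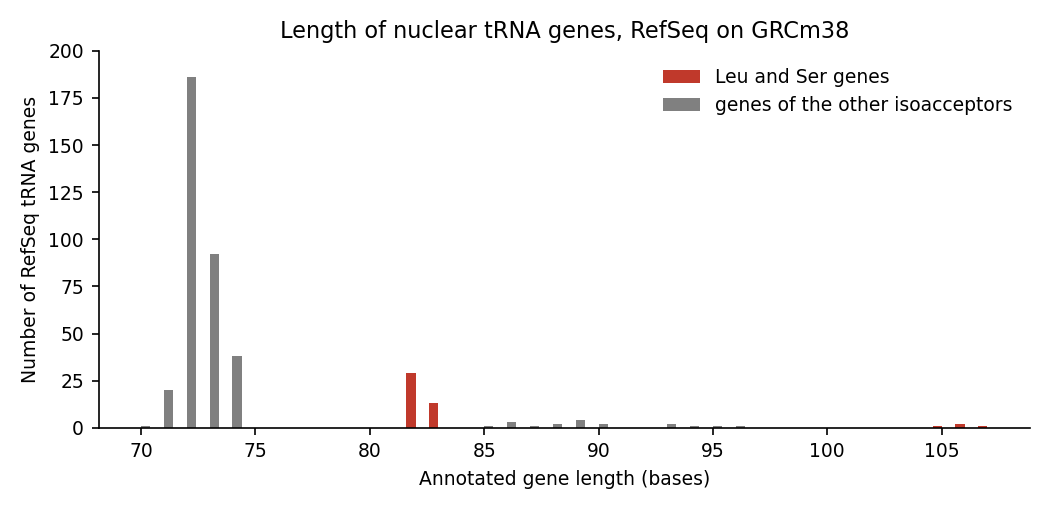
Number of nuclear tRNA genes (y axis) of each annotated length in bases (x axis), RefSeq on GRCm38, for 46 Leu and Ser genes (red) and 355 genes of the other isoacceptors in the table (grey). The Leu and Ser genes stand at 82 and 83 bases and, for Leu-CAA, at 105 to 107, while most other genes are 71 to 74 bases long.

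The sequences below show the arm that defines the group and how alike some isoacceptors are, which bears on how far reads can be told apart. They are the GRCm38 sequences of 3 Ser genes that lie inside GENCODE M21 transcripts and of 71 of the 82 bases of a Leu gene that lies at the edge of a RefSeq promoter window. Each is written from 5′ to 3′ on the strand of the tRNA. The first capitals are the anticodon and the second capitals the variable arm, found by counting the bases of the anticodon stem and the T stem.
n-TSaga9, Ser-AGA, chr4:10874064-10874145, plus strand: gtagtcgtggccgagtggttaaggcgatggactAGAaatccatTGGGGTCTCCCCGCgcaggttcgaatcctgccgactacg
n-TStga1, Ser-TGA, chr13:23518146-23518227, plus strand: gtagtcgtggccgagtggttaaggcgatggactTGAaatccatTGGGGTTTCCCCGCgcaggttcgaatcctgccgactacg
n-TSgct5, Ser-GCT, chr13:22050686-22050767, minus strand: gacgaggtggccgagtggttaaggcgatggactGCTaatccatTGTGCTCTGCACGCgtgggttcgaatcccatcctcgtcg
n-TLaag4, Leu-AAG, chr7:120917528-120917598, plus strand: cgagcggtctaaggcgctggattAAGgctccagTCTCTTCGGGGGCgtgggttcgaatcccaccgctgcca
The variable arm had 14 bases in the Ser genes and 13 in the Leu gene. n-TSaga9 and n-TStga1 were identical at 80 of 82 bases and differed by A34T, in the anticodon, and C50T, in the variable arm (positions count from 1 at the 5′ end, with the base of n-TSaga9 first). A further Ser-TGA gene, n-TStga2 on chromosome 13, had the same 82 bases as n-TStga1. n-TSgct5 shared 62 of 82 bases with n-TSaga9. Reads of identical copies cannot be assigned to 1 copy, so sums per isoacceptor are given first and single copies with that limit. Reads that miss the differing bases could come from either Ser-AGA or Ser-TGA genes. Summing does not remove that limit, which holds for the sums and shares of these 2 isoacceptors as well.

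Values are RPM, reads scaled by the sequencing depth of their library. Whole tRNAs and fragments were not told apart, so levels and abundance below are those of reads and not of whole tRNAs. By the step between values, a library's scale stood for 5913929 to 9274193 reads, of which the 46 rows held 17599 to 28874. The lowest row value in any library, that of tRNA791-SerGCT, stood for 10 reads, above the floor of 3 reads (0.323 to 0.507 RPM), and this covers counting error only. WT replicate 2 stood apart over all tested rows. Its mean correlation with its own group was 0.908, against 0.955 to 0.994 for the other libraries. Some results, but not all that change, are also given without it.

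The class II tRNAs together were at 2534, 2615, 2896 and 3616 RPM in iMLL-ENL libraries, against 2982, 2752, 2976 and 2841 RPM in WT libraries. The groups overlapped, with iMLL-ENL replicate 4 the highest of all libraries. The means were 2915 ± 493 RPM in iMLL-ENL and 2888 ± 111 RPM in WT (SD, n = 4 each), a ratio of 1.01. The sum of all tRNA rows was 213220 ± 14201 RPM in iMLL-ENL and 292631 ± 35840 RPM in WT. Class II tRNAs thus made up 1.37% ± 0.22 of the tRNA reads in iMLL-ENL and 0.999% ± 0.135 in WT (SD, n = 4 each). These percentages overlapped, with iMLL-ENL replicate 1 at 1.11% and WT replicate 4 at 1.16%. Without WT replicate 2 the WT mean was 1.06%. Leu rows summed to 2032 ± 366 RPM in iMLL-ENL and 2195 ± 97 RPM in WT. Ser rows summed to 778 ± 112 RPM in iMLL-ENL and 587 ± 67 RPM in WT, with no overlap between the libraries. Of all families of the table (rows summed by name), 47.8% had no overlap. The sums of class II, Leu and Ser rows were chosen with earlier results known and were not tested. They are on the scale of the deposited values, and levels depended on the scaling, as given below.

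In iMLL-ENL cells tRNA-Leu-CAG fell, and tRNA-Ser-GCT, tRNA-Leu-TAA and tRNA-Ser-AGA rose, on the scale of the deposited values. The comparison used limma on log2(RPM + 1) over all 67 families of the table, with Benjamini-Hochberg adjustment and a threshold of 0.05. Of the 10 isoacceptors 3 were called higher, 1 lower and 6 did not pass, against a background of 44.8% of all families called (26.9% higher and 17.9% lower). Among the 38 other tRNA isoacceptors, 8 were called higher, 10 lower and 20 did not pass. The median log2 fold change was 0.21 for the 10 isoacceptors, 0.03 for the other 38 tRNA isoacceptors and 0.24 for all families. The levels depended on the scaling. TMM scaling moved the median of all families by -0.38, and scaling to the tRNA total moved it by 0.45.

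**Figure D2:**
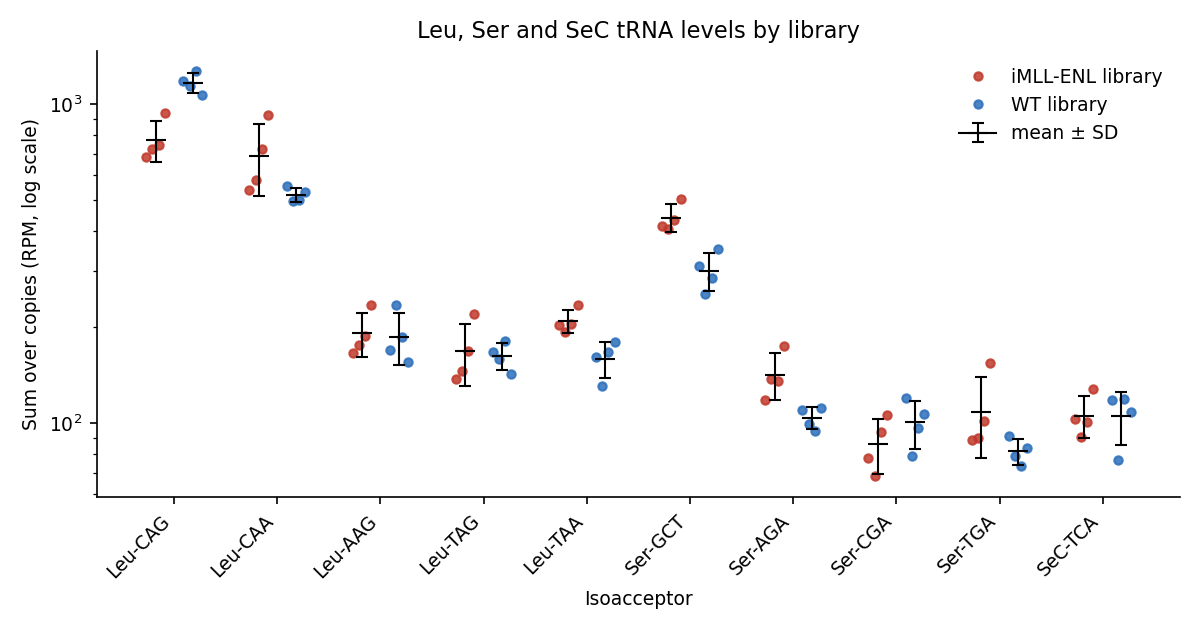
Summed level of each isoacceptor in RPM (y axis, log scale) by isoacceptor (x axis), with 1 point per library, iMLL-ENL in red and WT in blue, and the mean ± SD in black (n = 4 each). The 4 iMLL-ENL libraries lie below the 4 WT libraries for Leu-CAG and above them for Ser-GCT, Leu-TAA and Ser-AGA, and the groups overlap for the other 6 isoacceptors.

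tRNA-Leu-CAG, which reads the leucine codon CUG, had the highest mean RPM of the isoacceptors in both groups. It was at 683, 726, 747 and 936 RPM in iMLL-ENL libraries, against 1180.4, 1139.6, 1269.9 and 1069 RPM in WT libraries. All 4 iMLL-ENL libraries were below all 4 WT libraries. In limma this was a log2 fold change of -0.60 ± 0.14 (SE, adjusted p = 0.0114). It kept its direction in every setting run, at -0.999 after TMM scaling. Its call ended on the scale of the total of all rows (-0.31, adjusted p = 0.122), of that total less its 5 most abundant rows (-0.28, adjusted p = 0.208) and of the tRNA total (-0.15, adjusted p = 0.484).

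Of the 10 Leu-CAG copies 8 fell. Over these 8 copies the libraries ranged from 58.0 to 138 RPM in iMLL-ENL and from 98.1 to 179 RPM in WT, with log2 fold changes from -0.79 to -0.51 and adjusted limma p-values from 0.00797 to 0.0290. In each of the 8 the groups did not overlap. tRNA1001-LeuCAG was at 70.4, 78.3, 75.4 and 91.8 RPM in iMLL-ENL libraries, against 138, 141, 151 and 117 RPM in WT libraries (log2 fold change -0.79 ± 0.14 SE, adjusted p = 0.00797). tRNA1013-LeuCAG and tRNA698-LeuCAG were both at -0.78 (adjusted p = 0.00797 and 0.0084). Both, and tRNA1001-LeuCAG, kept their calls without each library in turn (highest adjusted p 0.0375). tRNA964-LeuCAG, the most abundant copy, averaged 115 ± 17 RPM in iMLL-ENL and 163 ± 13 RPM in WT (-0.51 ± 0.14, adjusted p = 0.0290). Leaving out iMLL-ENL replicate 1, 2 or 3, or WT replicate 1 or 3, ended its call (highest adjusted p 0.0843). Other copies lost calls too: class II copies called lower numbered 4 without iMLL-ENL replicate 1 or 3 or WT replicate 1, against 8. Over all rows 13 to 21 were then called lower, against 54. Scaled to the total of all rows, 4 class II copies were called lower (27 of all rows). The count was 2 (29 of all rows) without its 5 most abundant rows and 0 (16 of all rows) on the tRNA total. The remaining Leu-CAG copies, tRNA171-LeuCAG and tRNA1026-LeuCAG, were also the least abundant. tRNA171-LeuCAG averaged 58.5 ± 8.5 RPM in iMLL-ENL and 61.96 ± 3.31 RPM in WT (-0.09 ± 0.14, adjusted p = 0.675). tRNA1026-LeuCAG averaged 44.5 ± 7.8 RPM in iMLL-ENL and 38.9 ± 10.1 RPM in WT (0.22 ± 0.22, adjusted p = 0.484). Both are named here after their values were seen, and the difference between these and the other 8 copies was not tested. Together they held 13.3% of the Leu-CAG reads in iMLL-ENL and 8.7% in WT.

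tRNA-Leu-CAA, which reads UUG and whose genes carry an intron, was at 537, 579, 723 and 922 RPM in iMLL-ENL libraries, against 553, 498, 499 and 531 RPM in WT libraries. The groups overlapped, because iMLL-ENL replicate 1 was below WT replicate 1, and the iMLL-ENL libraries were far more spread than the WT libraries. The log2 fold change of 0.38 (95% interval -0.01 to 0.76, adjusted p = 0.106) did not pass in limma. Its copies differed: tRNA85-LeuCAA was at 161, 174, 203 and 260.02 RPM in iMLL-ENL libraries, against 124, 110.1, 117 and 114 RPM in WT libraries. The groups of this copy did not overlap, and it rose by 0.75 ± 0.16 (SE) on the log2 scale (adjusted p = 0.0131), or 0.35 after TMM scaling, where the call ended (adjusted p = 0.127). The most abundant copy, tRNA1911-LeuCAA, averaged 235 ± 66 RPM in iMLL-ENL and 187 ± 11 RPM in WT (0.29 ± 0.19, adjusted p = 0.271). It turned to -0.11 after TMM scaling. tRNA85-LeuCAA made up 29.0% ± 1.0 of the Leu-CAA reads in iMLL-ENL and 22.4% ± 0.8 in WT (SD, n = 4 each), a difference that was not tested.

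tRNA-Leu-TAA, which reads UUA, was at 203, 193, 205 and 234 RPM in iMLL-ENL libraries, against 161, 131, 168 and 180 RPM in WT libraries. The groups did not overlap, and the log2 fold change in limma was 0.39 ± 0.13 (SE, adjusted p = 0.0379). Leaving out any 1 library except iMLL-ENL replicate 2 or WT replicate 4 ended the call (highest adjusted p 0.0828), and after TMM scaling the log2 fold change was -0.006 (adjusted p = 0.98). Neither of its copies passed alone, with tRNA1326-LeuTAA, which held 81.0% of its reads in iMLL-ENL and 79.8% in WT, at 0.41 ± 0.15 (adjusted p = 0.067).

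tRNA-Leu-AAG, whose first anticodon base is changed to inosine, and tRNA-Leu-TAG, which reads CUA, gave no call. tRNA-Leu-AAG averaged 191 ± 30 RPM in iMLL-ENL and 187 ± 35 RPM in WT, a log2 fold change of 0.04 (95% interval -0.33 to 0.40, adjusted p = 0.862). tRNA-Leu-TAG averaged 168 ± 37 RPM in iMLL-ENL and 163 ± 16 RPM in WT, at 0.03 (95% interval -0.34 to 0.39, adjusted p = 0.904). Neither result shows that the levels were equal, only that any change within these intervals was not detected. Both turned negative after TMM, quantile and median scaling and were called higher after scaling to the total of the tRNA rows. The 5 Leu-AAG copies had log2 fold changes from -0.07 to 0.29, with tRNA189-LeuAAG, the most abundant, at -0.04 (adjusted p = 0.902), and tRNA863-LeuTAG, the most abundant of the 3 Leu-TAG copies, was also at -0.04 (adjusted p = 0.919).

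**Figure D3:**
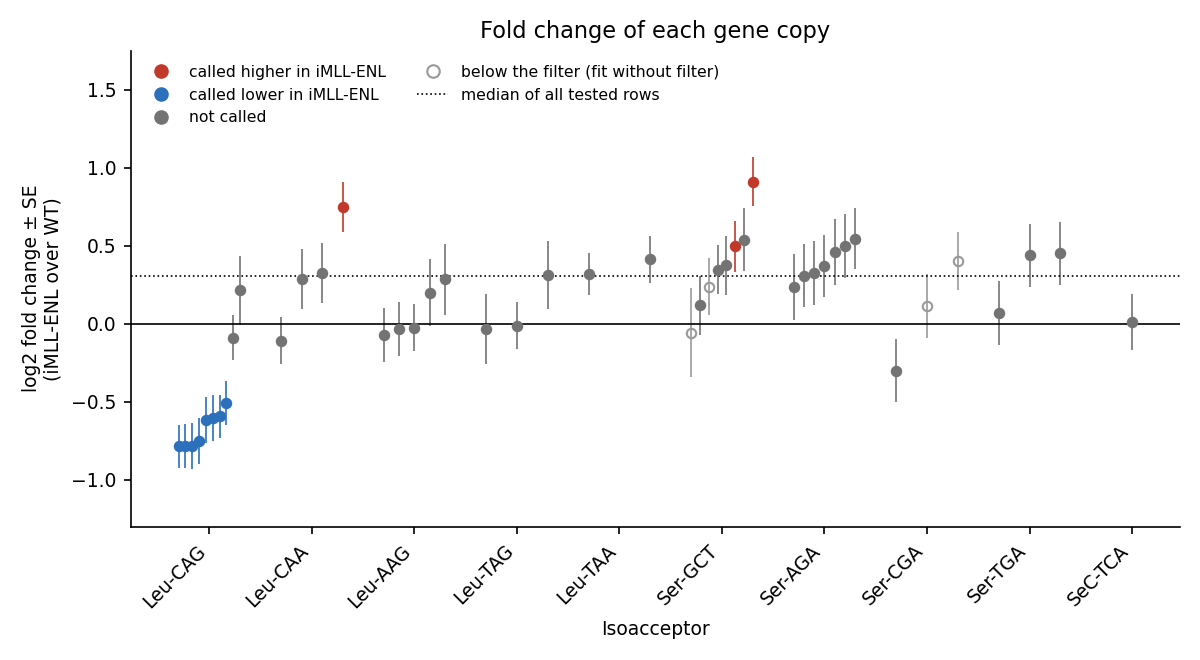
log2 fold change ± SE of iMLL-ENL over WT (y axis) for each of the 46 gene copies, grouped by isoacceptor (x axis), with calls at an adjusted p under 0.05 coloured and open circles for the 4 copies below the filter. The 8 blue points are all Leu-CAG, the 3 red points belong to Leu-CAA and Ser-GCT, and the dotted line is the median of all tested rows, 0.31.

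tRNA-Ser-GCT, which reads the serine codons AGC and AGU, was at 417, 407, 434 and 505 RPM in iMLL-ENL libraries, against 311, 255, 286 and 351 RPM in WT libraries. All 4 iMLL-ENL libraries were above all 4 WT libraries. In limma its log2 fold change was 0.55 ± 0.13 (SE, adjusted p = 0.0114), and it stayed positive in every setting run, but the call ended after TMM scaling (0.16, adjusted p = 0.392) and quantile normalization (0.39, adjusted p = 0.118). Of its 8 copies 6 were tested and 2 called. tRNA988-SerGCT was at 163, 161, 170.5 and 209.5 RPM in iMLL-ENL libraries, against 97.1, 78.2, 84.9 and 114 RPM in WT libraries. It rose by 0.91 ± 0.16 (SE, adjusted p = 0.00797), more than any other class II copy tested, and was called in every setting run. tRNA1821-SerGCT, at 178 ± 15 RPM in iMLL-ENL and 141 ± 26 RPM in WT, did not pass (0.35 ± 0.16, adjusted p = 0.12), and it turned to -0.05 after TMM scaling. These copies were about level in iMLL-ENL, with 40.5% and 39.9% of the Ser-GCT reads for tRNA1821-SerGCT and tRNA988-SerGCT, whereas in WT they held 46.8% and 31.0%. tRNA713-SerGCT averaged 32.7 ± 5.8 RPM in iMLL-ENL and 22.8 ± 2.7 RPM in WT (0.497 ± 0.164, adjusted p = 0.0478). Its call ended after TMM scaling (0.11, adjusted p = 0.70), quantile normalization and median centring, with all rows tested (adjusted p = 0.0508), with a plain limma prior, and when any 1 library except WT replicate 2 was left out. tRNA982-SerGCT and tRNA115-SerGCT had all 4 iMLL-ENL libraries at 10 RPM or more, against 2 and 3 WT libraries, so they passed the filter through the iMLL-ENL libraries, and neither was called.

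tRNA-Ser-AGA and tRNA-Ser-TGA are the pair whose printed genes differ at 2 bases, so their sums may share reads. tRNA-Ser-AGA was at 119, 138, 136 and 175 RPM in iMLL-ENL libraries, against 110.3, 99.8, 94.5 and 112 RPM in WT libraries. The groups did not overlap, and the log2 fold change in limma was 0.43 ± 0.14 (SE, adjusted p = 0.0379). Leaving out any 1 library except iMLL-ENL replicate 1 or WT replicate 2 ended the call (highest adjusted p 0.0959), as did TMM scaling (0.034, adjusted p = 0.889). tRNA-Ser-TGA was at 89.0, 90.2, 102 and 154 RPM in iMLL-ENL libraries, against 91.1, 78.8, 73.4 and 83.96 RPM in WT libraries. These groups overlapped, and its 0.37 (95% interval -0.05 to 0.796, adjusted p = 0.133) did not pass and was -0.02 after TMM scaling. The most abundant Ser-AGA copy, tRNA992-SerAGA, was at 40.6, 34.7, 44.2 and 60.9 RPM in iMLL-ENL libraries, against 37.5, 26.6, 25.9 and 35.5 RPM in WT libraries. The most abundant Ser-TGA copy, tRNA996-SerTGA, was at 37.2, 36.2, 41.7 and 65.1 RPM in iMLL-ENL libraries, against 37.2, 29.6, 27.7 and 33.2 RPM in WT libraries. These copies of different anticodons had similar levels in each library, and neither was called (0.499 and 0.45, adjusted p = 0.0914 and 0.118). The other 6 Ser-AGA copies ranged from 11.9 to 20.4 RPM over the iMLL-ENL libraries and from 10.5 to 14.9 RPM over the WT libraries, with log2 fold changes from 0.23 to 0.55 and no call.

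tRNA-Ser-CGA, which reads UCG, was at 77.7, 68.2, 93.8 and 106 RPM in iMLL-ENL libraries, against 119.96, 78.97, 97.05 and 107 RPM in WT libraries. The groups overlapped, and the log2 fold change of -0.22 (95% interval -0.63 to 0.19, adjusted p = 0.324) did not pass. It was called lower after TMM scaling (-0.62, adjusted p = 0.024) and with sample quality weights (-0.35, adjusted p = 0.0493). On the scale of the total of all rows it turned positive (0.063, adjusted p = 0.777). tRNA698-SerCGA held 83.1% ± 2.4 of its reads in iMLL-ENL and 87.9% ± 1.9 in WT, at -0.30 ± 0.20 (adjusted p = 0.274).

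tRNA-SeC-TCA has 1 row, tRNA88-SeCTCA. It was at 103, 90.8, 101 and 128 RPM in iMLL-ENL libraries, against 119, 76.8, 119 and 109 RPM in WT libraries. The groups overlapped, the means were 106 ± 16 RPM in iMLL-ENL and 106 ± 20 RPM in WT, and the log2 fold change was 0.01 (95% interval -0.39 to 0.41, adjusted p = 0.957). WT replicate 2 was the lowest WT library, and without it the value was -0.14 (adjusted p = 0.473). Unlike other tRNA genes, the SeC gene is transcribed from upstream promoter elements, as are the genes of U6, U6atac and Y RNA. Each of these families was summed over all rows of its name, 193 for U6, 3 for U6atac and 9 for Y RNA. Which of these rows come from genes with such promoters, and which from pseudogenes, was not checked. In the same fit U6 was at 0.27 ± 0.62 (SE, adjusted p = 0.775). Its WT replicate 2 was at 6627 RPM, the other WT libraries at 747 to 1187 RPM and the iMLL-ENL libraries at 1671 to 2082 RPM. U6atac was at -0.42 ± 0.32 (SE, adjusted p = 0.30). Its WT replicate 2 was at 136 RPM, the other WT libraries at 47.9 to 49.9 RPM and the iMLL-ENL libraries at 42.2 to 57.9 RPM. Both fold changes thus depend on WT replicate 2, and fits of these families without it are not given here. Y RNA was at 1.85 ± 0.14 (SE, adjusted p = 1.66e-05).

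By the first anticodon base, which pairs with the third codon base, the Leu and Ser isoacceptors gave no single direction. Those with C ranged from -0.60 to 0.38 (Leu-CAG, Leu-CAA, Ser-CGA, 1 lower), those with T from 0.03 to 0.39 (1 higher) and those with A from 0.04 to 0.43 (1 higher), and the one with G, Ser-GCT, was higher at 0.55. Over copies, 42 of the 46 passed the filter of 10 RPM in at least 4 libraries, and 3 were called higher and 8 lower, against a background of 28.9% of the 633 tested rows called (20.4% higher and 8.53% lower). The median log2 fold change was 0.23 for the tested class II copies and 0.31 for all tested rows. Without WT replicate 2, 7 copies were called higher and 8 lower, while over all 617 rows then tested 246 were called higher and 97 lower. iMLL-ENL and WT libraries were fully separated in 19 of the 46 copies, against 37.2% of all rows, and in 4 of the 10 isoacceptors, against 47.8% of all families.

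**Figure D4:**
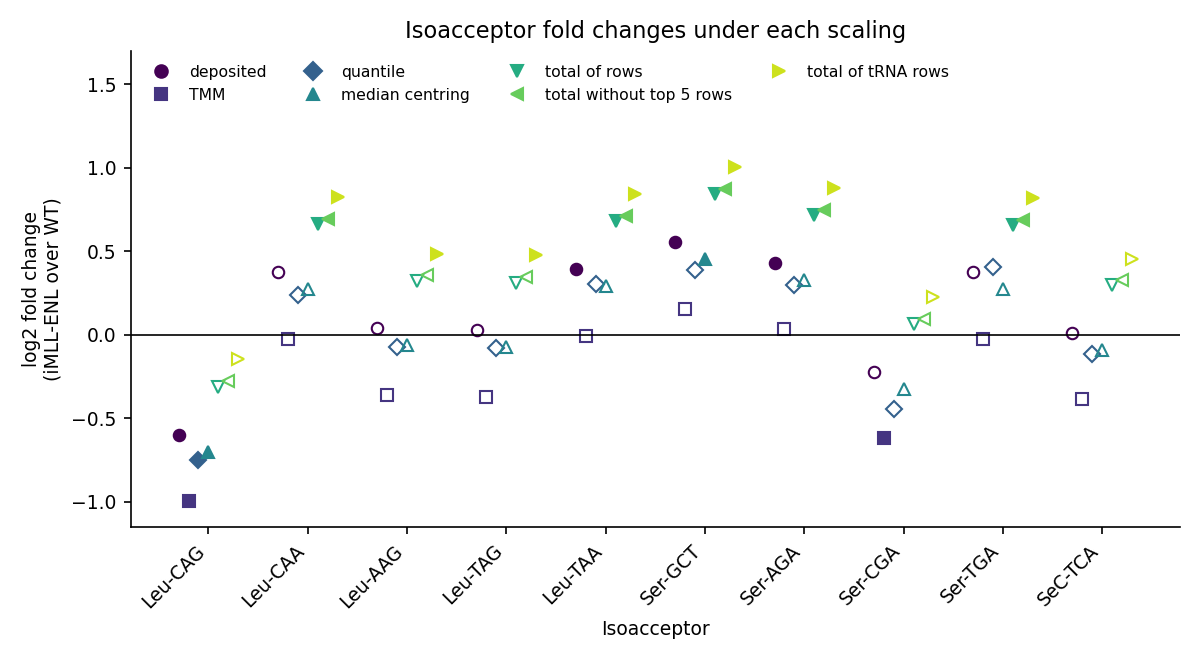
log2 fold change of iMLL-ENL over WT (y axis) for each isoacceptor (x axis) on the deposited scale and under 6 other scalings, with filled symbols where the adjusted p was under 0.05. Leu-CAG stays below 0, and Ser-GCT and Ser-AGA above 0, in every scaling, whereas each of the other 7 isoacceptors changes sign in at least 1.

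The balance among the isoacceptors of 1 amino acid does not depend on a scaling factor per library, so the share of each isoacceptor in the sum of its amino acid was compared as well. This comparison was chosen after seeing the data. The limma fit ran on the log2 shares of all 40 isoacceptors of the table whose amino acid has more than 1, of which 47.5% were called (25.0% higher and 22.5% lower). Of the 9 Leu and Ser shares, 3 were called higher and 2 lower, and the groups did not overlap in 6 of them, against 57.5% of all shares. Shares of 1 amino acid sum to 100%, so they are not independent of each other.

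Among leucine tRNAs the share of Leu-CAG was 39.5%, 39.9%, 36.8% and 36.8% in iMLL-ENL libraries, against 52.9%, 52.7%, 55.1% and 51.4% in WT libraries. The groups were separated by more than the spread within either, with a log2 fold change of -0.47 ± 0.04 (SE, adjusted p = 2.71e-05). The share of Leu-CAA was 31.1%, 31.8%, 35.6% and 36.2% in iMLL-ENL libraries, against 24.8%, 23.0%, 21.7% and 25.6% in WT libraries, a rise of 0.502 ± 0.072 on the log2 scale (adjusted p = 0.000778). Leu-CAA thus differed from WT in its share, while its level had not passed. The share of Leu-TAA rose as well, at 10.4% ± 1.1 in iMLL-ENL and 7.29% ± 1.06 in WT (0.52 ± 0.12, adjusted p = 0.00787). Leu-AAG (9.45% ± 0.25 in iMLL-ENL and 8.53% ± 1.59 in WT, adjusted p = 0.302) and Leu-TAG (8.24% ± 0.29 in iMLL-ENL and 7.41% ± 0.42 in WT, adjusted p = 0.0857) did not pass. WT replicate 2 held the highest Leu-AAG share, 10.9%, and without it the Leu-AAG share was called higher (0.29, adjusted p = 0.00195).

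Among serine tRNAs the share of Ser-CGA was 11.1%, 9.7%, 12.3% and 11.3% in iMLL-ENL libraries, against 19.0%, 15.4%, 17.6% and 16.3% in WT libraries. It fell by 0.62 on the log2 scale (SE 0.09, adjusted p = 0.000778), with no overlap. The share of Ser-GCT was 59.3%, 57.9%, 56.7% and 53.7% in iMLL-ENL libraries, against 49.1%, 49.7%, 51.9% and 53.7% in WT libraries. It rose by 0.16 ± 0.04 (SE, adjusted p = 0.0112), but iMLL-ENL replicate 4, at 53.71%, was only just above WT replicate 4, at 53.69%. Ser-AGA (18.2% ± 1.1 in iMLL-ENL and 17.8% ± 1.1 in WT, adjusted p = 0.683) and Ser-TGA (13.8% ± 1.8 in iMLL-ENL and 13.99% ± 1.14 in WT, adjusted p = 0.817) did not pass. The 5 called shares kept their calls without each library in turn.

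**Figure D5:**
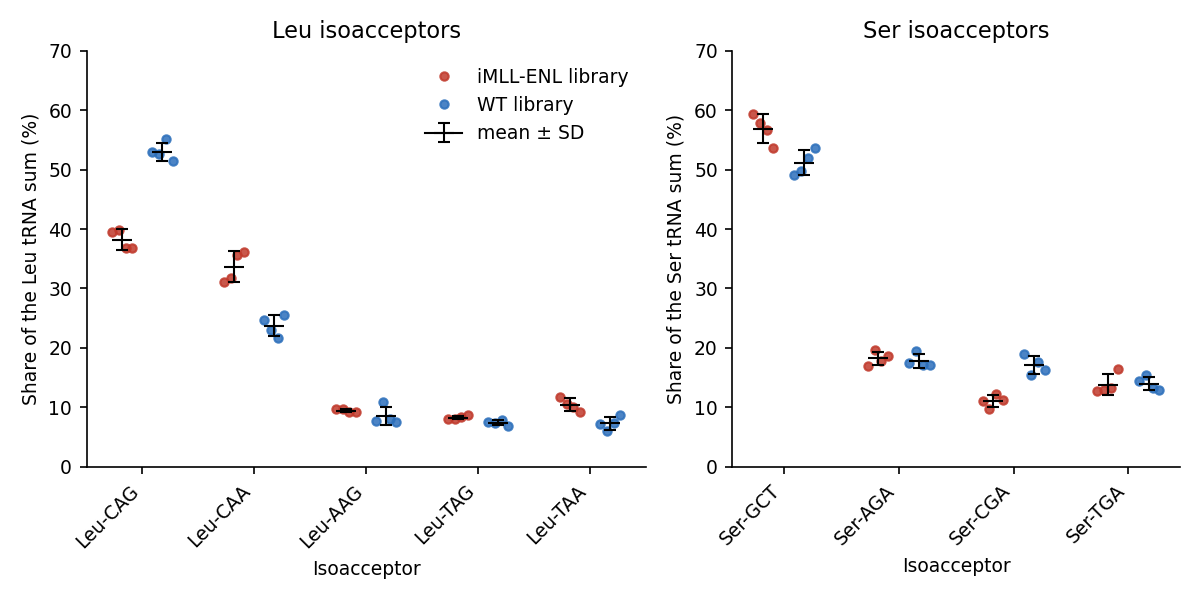
Share of each isoacceptor in the sum of its amino acid in percent (y axis) for the 5 Leu isoacceptors (left) and the 4 Ser isoacceptors (right), with 1 point per library, iMLL-ENL in red and WT in blue, and the mean ± SD in black (n = 4 each). Leu-CAG lies at 36.8% to 39.9% in iMLL-ENL and at 51.4% to 55.1% in WT, and Leu-CAA and Leu-TAA lie higher and Ser-CGA lower in iMLL-ENL.

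The authors' deposited table gives an FDR under 0.05 for 8 of the 46 copies, all lower in iMLL-ENL and all Leu-CAG, against 16.5% of all rows (4.56% higher and 11.9% lower). They were the 8 Leu-CAG copies called lower here, at log2 fold changes from -1.21 to -0.92 in the authors' deposited table. The 3 copies called higher here had an FDR above 0.05 in the authors' deposited table, with log2 fold changes of 0.37 for tRNA85-LeuCAA, 0.51 for tRNA988-SerGCT and 0.12 for tRNA713-SerGCT. The authors' log2 fold changes were below 0 for 34 of the 46 copies and above 0 for 12, with a median of -0.19. Over all 964 rows their median was -0.10, against 0.33 for the same rows in the fit here without a filter. After TMM scaling the median of the 633 tested rows was -0.08. The authors' fold changes are thus not centred as those here are, so their sizes are not directly comparable. Both Leu-TAA copies were below 0 in the authors' deposited table (-0.07 and -0.001). The 7 Ser-AGA copies ranged from -0.14 to 0.18, with 3 below 0 and 4 above.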

How the data were processed

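Small RNA libraries of 8 samples were analysed from 1 table. Per the file headers it holds a value per library, named TPM, and the authors' log2 fold change, mean log2 CPM, p-value and FDR. The deposited values are taken as RPM (a read has 1 worth in every row, whatever its length): in each library 99.79% to 100% came out whole in units of that worth, to within 0.0055 RPM. The genome build was GRCm38, per the submitters' processing notes. Libraries were made with the QIAseq miRNA kit, per the labels' protocols. The aligner, annotation, use of molecular indexes and handling of shared reads are not stated in the labels, and with no read lengths at hand whole tRNAs and fragments were not told apart. limma 3.58.1 (R 4.3.3, statmod 1.5.0) was fitted to log2(RPM + 1) with a trended, robust prior variance, two-sided, with Benjamini-Hochberg adjustment over all 633 rows with 10 RPM in at least 4 libraries, over 67 families summed by name, or over 40 shares. The row fit was tested on simulated rows drawn independently of each other, unlike copies that share reads. Fold changes on this scale understate those of low rows. The prior pools variance over all rows, so a p-value does not measure the spread of 1 row alone. Named copies are the most abundant of each isoacceptor, the 3 largest changes called in each direction within Leu and Ser, and tRNA-SeC. Members, lists and tests were chosen with earlier results of these data known. Python 3.11.15, numpy 2.4.6, pandas 2.3.3 and matplotlib 3.10.9 were used for sums and plots. Other scalings, pseudocounts, filters, weights, a replicate block and leaving out each library were the alternatives.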

Additional observations from a re-analysis of the deposited data

Results flagged for a closer look

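In 3 of 76 groups of 4 libraries checked, 1 library lay far from the others by Dixon's test, and chance alone gives about 1 in 20. The share of Ser-AGA among serine tRNAs was 19.5% in WT replicate 2, against 17.1% to 17.5% in the other WT libraries. The share of Ser-TGA was 16.4% in iMLL-ENL replicate 4, against 12.7% to 13.3% in the other iMLL-ENL libraries. tRNA698-LeuCAG was at 84.0 RPM in iMLL-ENL replicate 4, against 65.5 to 67.6 RPM in the other iMLL-ENL libraries.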

How the results depend on the processing

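The 5 share calls kept their direction and call in every setting run, except that the Ser-GCT share lost its call with a replicate block (0.16, adjusted p = 0.0686). Levels depended on the scaling. After TMM scaling the log2 fold changes were -0.36 (Leu-AAG), -0.024 (Leu-CAA), -0.0063 (Leu-TAA), -0.37 (Leu-TAG), -0.39 (SeC-TCA), 0.034 (Ser-AGA), -0.62 (Ser-CGA), 0.16 (Ser-GCT) and -0.023 (Ser-TGA). After quantile normalization they were -0.076 (Leu-AAG), 0.30 (Leu-TAA), -0.082 (Leu-TAG), -0.11 (SeC-TCA), 0.29 (Ser-AGA) and 0.39 (Ser-GCT). After median centring they were -0.065 (Leu-AAG), 0.29 (Leu-TAA), -0.076 (Leu-TAG), -0.092 (SeC-TCA) and 0.33 (Ser-AGA). Scaling to the total of all rows gave 0.66 (Leu-CAA), -0.31 (Leu-CAG), 0.063 (Ser-CGA) and 0.66 (Ser-TGA). Leaving the 5 most abundant rows out of that total gave 0.69 (Leu-CAA), -0.28 (Leu-CAG), 0.094 (Ser-CGA) and 0.69 (Ser-TGA). Scaling to the total of the tRNA rows gave 0.49 (Leu-AAG), 0.83 (Leu-CAA), -0.15 (Leu-CAG), 0.47 (Leu-TAG), 0.22 (Ser-CGA) and 0.82 (Ser-TGA). Those called higher as deposited kept their calls on these 3 scales, at 0.84 to 1.004 (Ser-GCT), 0.68 to 0.84 (Leu-TAA) and 0.72 to 0.88 (Ser-AGA). With sample quality weights the levels were -0.041 (Leu-TAG), -0.16 (SeC-TCA) and -0.35 (Ser-CGA, called lower). The shares of Leu-AAG and Ser-TGA were then at 0.26 (called higher) and 0.0073. The Leu-TAG share passed in limma without trend or robust (0.15). The cause of these changes was not tested.

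Counts of calls moved with those over the whole table. Of the 42 copies tested, those called higher numbered 1 (TMM), 18 (total of all rows), 19 (5 most abundant rows left out), 22 (total of tRNA rows) and 11 (weights), against 3, where 35, 251, 255, 312 and 322 of all 633 rows were called higher, against 129. Copies called lower numbered 11 (TMM), 4 (total of all rows), 2 (5 most abundant rows left out), 0 (total of tRNA rows) and 9 (weights), against 8, where 129, 27, 29, 16 and 135 of all rows were called lower, against 54. Isoacceptors called higher numbered 0 (TMM), 0 (quantile), 1 (median), 5 (total of all rows), 5 (5 most abundant rows left out) and 7 (total of tRNA rows), against 3, where 3, 6, 15, 34, 32 and 41 of all 67 families were called higher, against 18. Isoacceptors called lower numbered 2 (TMM), 0 (total of all rows), 0 (5 most abundant rows left out), 0 (total of tRNA rows) and 2 (weights), against 1, where 19, 4, 5, 3 and 16 of all families were called lower, against 12.

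Of the named copies, those that changed sign were tRNA1821-SerGCT (-0.051) and tRNA1911-LeuCAA (-0.11) after TMM, tRNA88-SeCTCA after TMM (-0.39), quantile (-0.11), median centring (-0.093) and weights (-0.19), tRNA698-SerCGA with the 5 most abundant rows left out (0.013) and scaled to tRNA rows (0.14), tRNA189-LeuAAG scaled to all rows (0.25), without the top 5 (0.28), to tRNA rows (0.41) and with weights (0.037), and tRNA863-LeuTAG scaled to all rows (0.25), without the top 5 (0.28) and to tRNA rows (0.41).

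Without each library in turn the log2 fold changes ranged from -0.066 to 0.15 (Leu-AAG), 0.30 to 0.45 (Leu-TAA), -0.11 to 0.11 (Leu-TAG), -0.14 to 0.078 (SeC-TCA) and 0.33 to 0.51 (Ser-AGA), and for shares from 0.11 to 0.29 (Leu-AAG), -0.0030 to 0.076 (Ser-AGA) and -0.11 to 0.020 (Ser-TGA). Leu-CAA was at 0.23 and Ser-TGA at 0.19 without iMLL-ENL replicate 4, and Ser-CGA was at -0.12 without iMLL-ENL replicate 2 and -0.13 without WT replicate 1, with no call in any. Copies called higher ranged from 2 to 7 and lower from 4 to 8, while over all rows 46 to 246 were called higher and 13 to 97 lower. Isoacceptors called higher ranged from 1 to 2, while 14 to 23 of all families were. For copies, tRNA189-LeuAAG ranged from -0.15 to 0.045, tRNA863-LeuTAG from -0.21 to 0.075, tRNA1911-LeuCAA from 0.12 (without iMLL-ENL replicate 4) to 0.41 and tRNA88-SeCTCA from -0.14 to 0.078.

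Deviations from the group means of same-numbered libraries were compared, and they had correlated deviations for numbers 1, 2 and 4 (0.39, 0.29 and 0.42) but not 3 (-0.13). Since the labels state no pairing and 1 pair did not correlate, the numbers were not used to pair the libraries, and whether they share a source is not settled. Libraries numbered 1, 2 and 4 correlated best with their own number and those numbered 3 did not, a hint from the data only. With a replicate block 3 copies were called higher and 8 lower (151 and 42 of all rows), and tRNA713-SerGCT lost (adjusted p = 0.0573) and tRNA1326-LeuTAA gained (adjusted p = 0.0443) its call. The planned count models were not run, since the smallest value above 0 stood for 2 to 7 reads in 6 libraries.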
